A study of Mus musculus with 9 samples.

Results

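RNA-Seq compared whole newborn lenses of the *Le-Cre* line with those of the *P0-3.9GFPCre* line, taking every pool whose label names either line, which gave 6 of the 9 pools of the study. Each line had 3 pools, and each pool held 6 lenses from 3 mice. All mice were newborn and shared the *FVB/N* inbred background. *Le-Cre* mice were hemizygous for a transgene in which a *Pax6* P0 promoter fragment drives CRE together with a separate GFP, and *P0-3.9GFPCre* mice were hemizygous for a transgene in which another *Pax6* P0 promoter fragment drives a fusion of GFP and CRE. Each line descends from 1 transgenic founder, and the study names no floxed target gene for these lenses. What the insertion site, the CRE protein and variation unrelated to a transgene each brought to a difference cannot be told apart. The other 3 pools of the study came from non-transgenic *FVB/N* lenses and are given here as background. Transcripts of CRE and GFP were not analysed here.

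The lens is built from 2 cell populations, a front layer of epithelial cells and the fibre cells that fill its body. Fibre cells leave the cell cycle, fill with crystallins and later lose their nuclei. PAX6 is the transcription factor that specifies eye tissue, and its P0 promoter with the upstream ectoderm enhancer is active in the surface ectoderm that forms lens and cornea, which is why fragments of it are used to bring CRE into the early lens. CRE cuts DNA at loxP sites and can at high levels also cut related sequences in the genome. Cells answer DNA breaks through p53, a transcription factor that switches on genes for cell cycle arrest, repair and cell death.

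The labelled tissue was borne out by its markers. The 16 crystallins together took 389790 to 430520 CPM (counts scaled to a common, normalised library size) in the *Le-Cre* pools and 374490 to 415520 CPM in the *P0-3.9GFPCre* pools. RSEM's estimated reads per gene, the expected counts, added up to totals that ran from 20670968 to 28098059 per pool in these lines. Expression of *Ddx3y*, *Eif2s3y*, *Kdm5d* and *Uty*, which lie on the Y chromosome, summed to 1.53, 71.9 and 0.633 CPM in *Le-Cre* pools 1, 2 and 3, and to 53.9, 135 and 1.66 CPM in *P0-3.9GFPCre* pools 1, 2 and 3, so the pools differed in their male share within both lines. Between the lines, all 4 genes were lower in *Le-Cre*, with a median log2 fold change of -1.22 (*Le-Cre* minus *P0-3.9GFPCre*), while their pools overlapped.

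One background pool stood apart before any test. *FVB/N* pool 2 had 0.473 CPM of *Xist*, the RNA of the inactive X chromosome of females, where the other *FVB/N* pools had 477 and 482 CPM, and its Y-linked sum was 194 CPM against 132 and 126 CPM. It was also the *FVB/N* pool that most often lay with the *P0-3.9GFPCre* pools in the genes described here. The *FVB/N* pools are therefore given one by one wherever a gene's *FVB/N* level is printed.

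Differential expression was tested with edgeR's quasi-likelihood test over the 6 pools, and a gene was called when the lines differed by 1.5-fold or more and the adjusted p was 0.05 or less. Of 14989 tested genes, 31 were called, which is 0.207% of all tested genes. *Le-Cre* lenses had lower levels of 27 of these genes (0.18% of tested genes) and higher levels of 4 (0.0267%). For each of the 31 genes the pools of the lines did not overlap, a separation seen in 14.2% of all tested genes (*Le-Cre* above in 6.74% and below in 7.5%). Before adjustment, 1248 genes (8.33%) had a p under 0.05, 579 of them higher and 669 lower in *Le-Cre* (3.86% and 4.46% of tested genes), and the median log2 fold change of all genes was -0.0024. Signs are given throughout as *Le-Cre* minus *P0-3.9GFPCre*.

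The count depended on which pools shared the estimate of spread. When all 9 pools were fitted together, edgeR called 0 of 15557 genes, with a smallest adjusted p of 0.200 and 1226 genes at an unadjusted p under 0.05. With *FVB/N* pool 2 left out of that fit, an alternative chosen after seeing the data, 18 genes were called and all 18 were among the 31. On the 6 pools, DESeq2 called 74 genes without a prior on the fold changes and 22 with one, and limma-voom called 30. A fit with the Y-linked level of each pool as a covariate called 16 genes, 15 of them among the 31.

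The called genes showed a second regularity among the background pools, which were not used in the test. For each gene, the midpoint between the means of the lines on a log2(CPM + 0.5) scale was taken, and each *FVB/N* pool was placed on the *Le-Cre* or the *P0-3.9GFPCre* side of it. *FVB/N* pool 2 lay on the *P0-3.9GFPCre* side in 30 of the 31 called genes, against 55.5% of all tested genes. *FVB/N* pool 1 lay on the *Le-Cre* side in 29 of the 31 and *FVB/N* pool 3 in 26. The complete pattern, with pools 1 and 3 beside *Le-Cre* and pool 2 beside *P0-3.9GFPCre*, held for 24 of the 31 called genes (77.4%) and for 13.2% of all tested genes. In those 24 genes, lenses without a transgene thus lay on both sides, and the source of this was not tested. Among the called genes the median ratio of the highest to the lowest pool of a line was 1.17 in *Le-Cre*, 1.26 in *P0-3.9GFPCre* and 2.89 in *FVB/N*, whereas over all tested genes it was 1.20, 1.20 and 1.21.

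**Figure D1:**
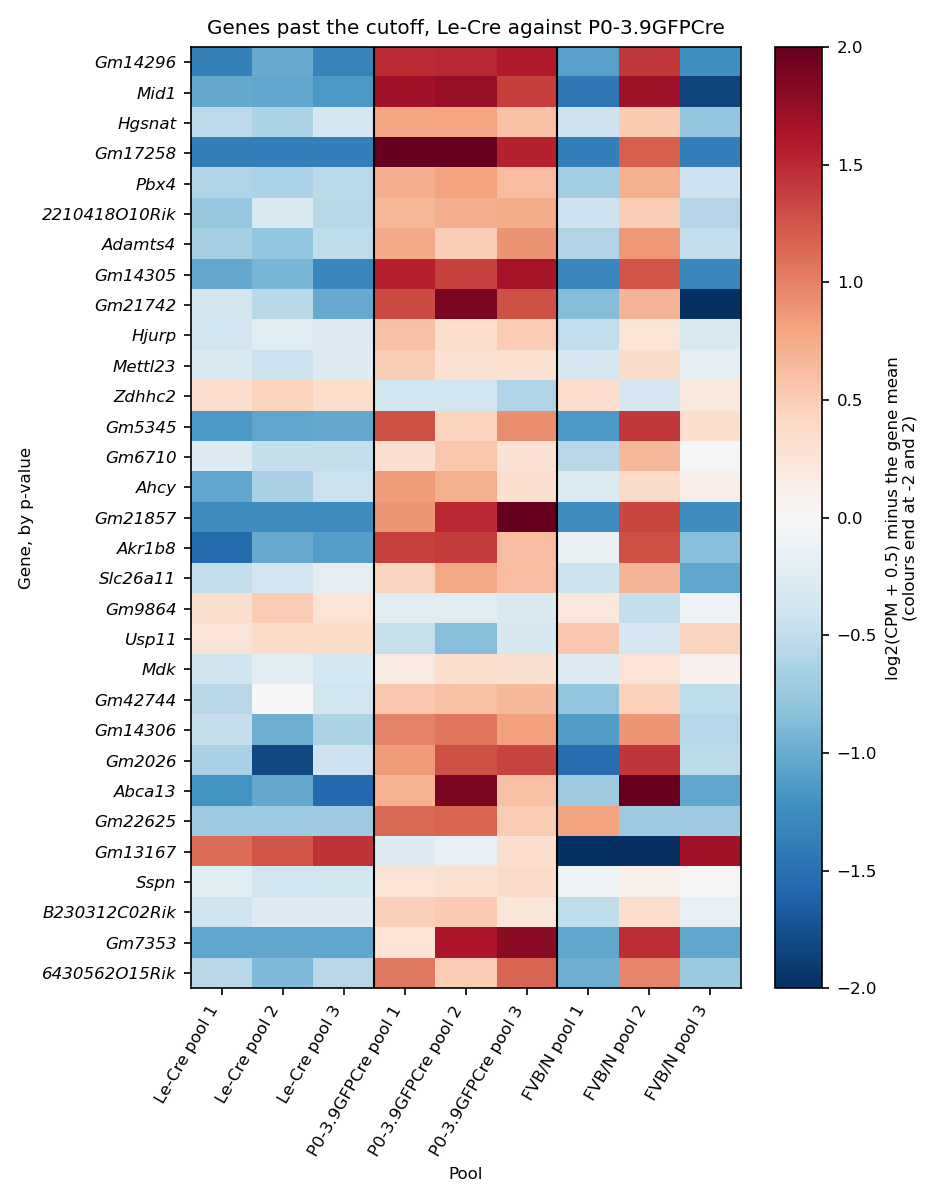
Each row is 1 of the 31 genes past the cutoff and each column 1 pool, and the colour gives log2(CPM + 0.5) minus the gene's mean over the 9 pools. The 3 columns of each Cre line look alike, while *FVB/N* pool 2 resembles the *P0-3.9GFPCre* columns in 30 of 31 genes and *FVB/N* pools 1 and 3 mostly resemble *Le-Cre*.

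Of the 31 called genes, 11 lie on chromosome 2, where 0.93% of 1183 tested genes were called, and 7 of these fall in 1 stretch near its distal end, from 175010241 to 178078476 on GRCm38. This stretch holds a cluster of related zinc finger genes, which encode DNA-binding proteins and arose by repeated duplication. The stretch was singled out after its values were seen. To show how alike its members are, the promoters of the 4 called members with a RefSeq entry (build GRCm38.p6, plus strand) are given from 250 bases before to 50 bases after the start. The capitals mark the longest run of letters that all 4 promoters share, 68 bases long.
Gm6710: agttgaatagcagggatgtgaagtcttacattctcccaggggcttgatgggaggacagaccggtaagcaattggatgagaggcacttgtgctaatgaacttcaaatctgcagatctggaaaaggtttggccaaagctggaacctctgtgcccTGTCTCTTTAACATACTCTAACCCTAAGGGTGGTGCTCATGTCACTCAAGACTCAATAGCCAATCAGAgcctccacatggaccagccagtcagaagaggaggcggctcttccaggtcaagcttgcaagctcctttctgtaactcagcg
Gm2026: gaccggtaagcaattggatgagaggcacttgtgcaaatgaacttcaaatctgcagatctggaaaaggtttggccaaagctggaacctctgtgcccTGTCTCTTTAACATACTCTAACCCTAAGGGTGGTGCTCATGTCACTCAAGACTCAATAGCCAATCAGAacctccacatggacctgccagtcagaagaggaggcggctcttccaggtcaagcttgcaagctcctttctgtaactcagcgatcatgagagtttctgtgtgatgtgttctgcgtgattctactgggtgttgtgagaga
2210418O10Rik: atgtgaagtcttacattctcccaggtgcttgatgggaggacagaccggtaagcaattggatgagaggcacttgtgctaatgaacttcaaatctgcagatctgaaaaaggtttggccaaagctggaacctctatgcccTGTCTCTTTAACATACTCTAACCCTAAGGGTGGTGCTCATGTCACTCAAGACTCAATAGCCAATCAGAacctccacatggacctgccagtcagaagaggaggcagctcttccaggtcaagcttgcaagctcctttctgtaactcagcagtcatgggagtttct
Gm14305: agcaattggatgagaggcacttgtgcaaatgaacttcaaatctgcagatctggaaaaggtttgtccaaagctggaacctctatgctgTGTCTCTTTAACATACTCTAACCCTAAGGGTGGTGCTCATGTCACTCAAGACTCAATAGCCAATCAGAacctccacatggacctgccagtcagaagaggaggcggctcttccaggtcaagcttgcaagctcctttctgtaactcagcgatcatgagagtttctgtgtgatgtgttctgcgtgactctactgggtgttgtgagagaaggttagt
These promoters lie at chr2:175868995-175869294 for *Gm6710*, chr2:175965105-175965404 for *Gm2026*, chr2:176226315-176226614 for *2210418O10Rik*, chr2:176708103-176708402 for *Gm14305*. The promoters of *Gm2026* and *Gm14305* were identical in 93.2% of aligned positions. The same run, searched on both strands, occurs in 19 of 32851 RefSeq promoters (0.0578%), which belong to 15 genes, and 14 of these genes are tested genes of the stretch. Of those 14 genes, 4 were called and log2 fold changes ran from -4.98 to 0.56, so genes with this run included ones with no lower level in *Le-Cre*. Of the 26 other tested genes of the stretch, for which no RefSeq promoter with the run was found, 3 were called. Those 3, *Gm14296*, *Gm14306* and *Gm17258*, have no RefSeq promoter entry, so whether they hold the run is not known.

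Of the cluster's 40 tested genes, 30 had a log2 fold change below 0 with a median of -0.41, 19 were lower at an unadjusted p under 0.05 and 0 were higher, and 7 passed the cutoff (17.5%, against 0.207% of all tested genes). Added up over the 40 genes, expression was 274, 333 and 290 CPM in *Le-Cre* pools 1, 2 and 3, and 464, 447 and 470.4 CPM in the *P0-3.9GFPCre* pools. The *FVB/N* pools had 312, 437 and 306 CPM, with pool 2 near the *P0-3.9GFPCre* lenses. The 7 called genes lie between 175869219 and 176927809, in a middle block of 12 tested genes, and neither the 11 tested genes before it nor the 17 after it held a call in edgeR. Of those 17, 4 were lower at an unadjusted p under 0.05, and log2 fold changes of the 17 ran from -1.20 to 1.47. Of the 11 before the block, *Gm14399*, *Gm4631*, *Gm4723*, *Gm4724* and *Gm8923* were lower at that level, and the 11 ran from -4.44 to 1.505. In DESeq2 without a prior, *Gm4631*, *Gm4724*, *Gm14410* and *Gm14419*, all outside the block, had adjusted p of 5.9e-05, 0.00072, 0.0025 and 0.024. *Gm4631* averaged 79.3 CPM in *Le-Cre* and 118 CPM in *P0-3.9GFPCre*, a 1.49-fold difference in edgeR. These genes were named after their values were seen.

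**Figure D2:**
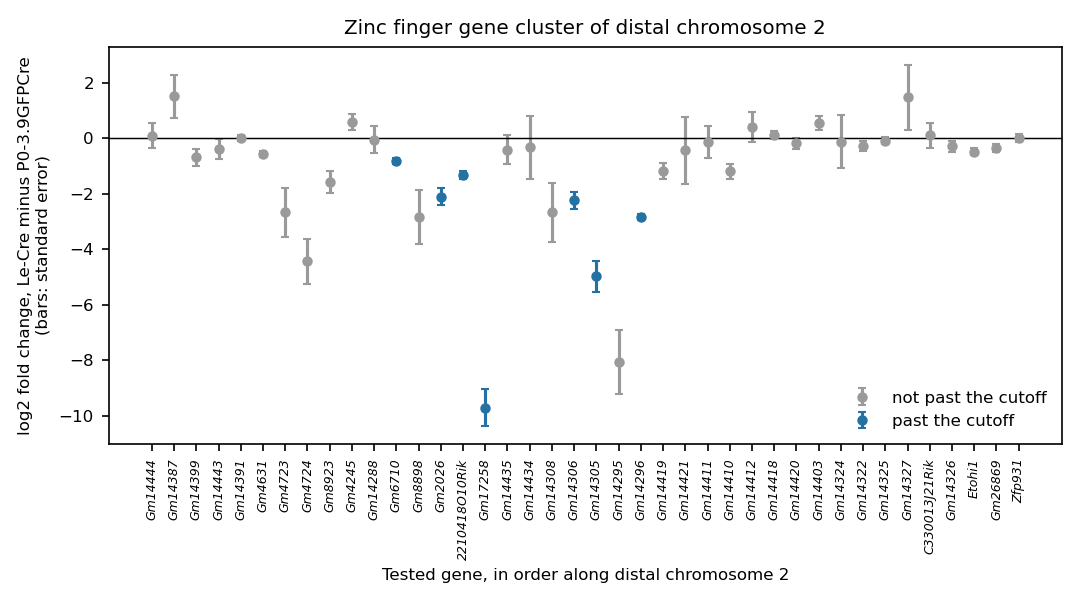
Points give the log2 fold change (*Le-Cre* minus *P0-3.9GFPCre*) with its standard error for the 40 tested genes of the distal chromosome 2 cluster, in their order along the chromosome, and blue marks the 7 genes past the cutoff. The called genes all lie below 0, and the lowest points, *Gm17258* and *Gm14295*, had no read in any *Le-Cre* pool, so their height depends on the prior count of the fit.

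*Gm14296*, on chromosome 2 from 176892509 to 176927809 (minus strand), carried the smallest p of the comparison. *Gm14296* had 6.05, 7.84 and 6.15 CPM in the *Le-Cre* pools 1, 2 and 3, 46.6, 46.9 and 49.7 CPM in the *P0-3.9GFPCre* pools and 7.34, 44.2 and 6.67 CPM in the *FVB/N* pools. The lines were thus separated 7.14-fold (log2 fold change -2.84 ± 0.11 (SE), adjusted p = 3.06e-06 in edgeR), and *FVB/N* pool 2 stood with *P0-3.9GFPCre*. *Gm17258*, an annotated pseudogene of the same cluster, lies on chromosome 2 from 176257249 to 176258516 and had no read (an expected count that rounds to 0) in any *Le-Cre* pool, in *FVB/N* pool 1 or in *FVB/N* pool 3. It had 5.18, 4.7 and 3.28 CPM in the *P0-3.9GFPCre* pools and 2.45 CPM in *FVB/N* pool 2. Its level in *P0-3.9GFPCre* was at least 111-fold higher than a floor of 3 counts over the 3 *Le-Cre* pools, a limit that covers counting error only (adjusted p = 0.0030 in edgeR).

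*2210418O10Rik*, which lies beside *Gm17258*, had 4.34, 6.08 and 5.02 CPM in *Le-Cre*, 12.4, 12.9 and 13.1 CPM in *P0-3.9GFPCre* and 5.64, 11 and 4.95 CPM in *FVB/N* (log2 fold change -1.31 ± 0.14 (SE), adjusted p = 0.00985 in edgeR). *Gm14305* was near 0 in *Le-Cre* lenses, with 0.107, 0.156 and 0 CPM in *Le-Cre*, 3.13, 2.66 and 3.37 CPM in *P0-3.9GFPCre* and 0, 2.45 and 0 CPM in *FVB/N* (log2 fold change -4.98 ± 0.55 (SE), adjusted p = 0.00985 in edgeR). *Gm14306* had 0.818, 0.429 and 0.678 CPM in *Le-Cre*, 3.13, 3.34 and 2.74 CPM in *P0-3.9GFPCre* and 0.34, 2.88 and 0.737 CPM in *FVB/N* (log2 fold change -2.24 ± 0.32 (SE), adjusted p = 0.0307 in edgeR). All 3 genes had each *Le-Cre* pool below each *P0-3.9GFPCre* pool, and in each of them *FVB/N* pool 2 was the high background pool.

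*Gm2026* had 6.55, 2.65 and 7.78 CPM in *Le-Cre*, 19.5, 26.2 and 27.7 CPM in *P0-3.9GFPCre* and 3.33, 29.4 and 7.21 CPM in *FVB/N* (log2 fold change -2.12 ± 0.30 (SE), adjusted p = 0.0307 in edgeR). *Gm6710*, the least changed of the 7 called cluster genes, had 14.6, 12.4 and 12.4 CPM in *Le-Cre*, 22.1, 25.6 and 21.5 CPM in *P0-3.9GFPCre* and 11.7, 27.9 and 17 CPM in *FVB/N* (log2 fold change -0.81 ± 0.10 (SE), adjusted p = 0.0222 in edgeR). *Gm14295* and *Gm4724*, members of the same cluster named after their values were seen, did not pass the cutoff (adjusted p = 0.0577 and 0.0923 in edgeR). *Gm14295* had no read in *Le-Cre* and 1.69, 0.533 and 1.98 CPM in *P0-3.9GFPCre*.

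Cluster genes share reads, so a single gene's value is less certain than the cluster's. Of the 51-base sequences, the length of 1 read, in its transcripts, *2210418O10Rik* shared 100% with other genes, *Gm2026* 98.4%, *Gm17258* 95.9%, *Gm6710* 92.0%, *Gm14305* 88.6%, *Gm14306* 84.3% and *Gm14296* 56.0%. When each was summed with the genes that hold at least 10% of its sequences, *Gm14296* kept a log2 fold change of -2.46 (adjusted p = 8.62e-06 in edgeR), and held 70.6% of that sum. *Gm17258* and *2210418O10Rik*, whose partner is *Gm14296*, held 7.38% and 25.2% of their sums, so those sums mostly restate *Gm14296*. *Gm14305* summed with 17 genes gave -0.58 (adjusted p = 0.0285 in edgeR). The sum around *Gm6710* and *Gm2026*, which is the same set of 17 genes, gave -0.61 (adjusted p = 0.0184 in edgeR). *Gm14306* summed with 11 genes gave -0.36 (adjusted p = 0.441 in edgeR) and was no longer called. These 4 genes held 0.62% to 7.58% of their sums, so the sums describe the cluster more than the gene.

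*Mid1* was the other gene with a several-fold difference at high depth. It encodes a microtubule-associated ubiquitin ligase, lies on chromosome X from 169685199 to 170005736, and in the mouse spans the edge of the pseudoautosomal region, where X and Y pair. *Mid1* had 21, 20.8 and 19.3 CPM in the *Le-Cre* pools 1, 2 and 3, 140.4, 147 and 113 CPM in the *P0-3.9GFPCre* pools and 15.8, 141 and 11.6 CPM in the *FVB/N* pools. Its level was 6.55-fold lower in *Le-Cre* (log2 fold change -2.71 ± 0.11 (SE), adjusted p = 3.06e-06 in edgeR), and *FVB/N* pool 2 again stood with *P0-3.9GFPCre* and the other *FVB/N* pools with *Le-Cre*.

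The called genes *Gm21742* and *Gm21857* are annotated pseudogenes on the Y chromosome whose sequences *Mid1* shares. *Gm21742* had 1.49, 1.25 and 0.769 CPM in *Le-Cre*, 5.84, 8.96 and 5.7 CPM in *P0-3.9GFPCre* and 0.908, 3.61 and 0 CPM in *FVB/N* (log2 fold change -2.52 ± 0.29 (SE), adjusted p = 0.0122 in edgeR). *Gm21857* had no read in *Le-Cre* and 1.69, 2.86 and 5.97 CPM in *P0-3.9GFPCre*, with 0, 2.49 and 0 CPM in *FVB/N*, and its *P0-3.9GFPCre* level was at least 87.6-fold higher than the floor of 3 counts (adjusted p = 0.0272 in edgeR). That limit covers counting error only, and *Gm21857* shared 95.7% of its sequences with other genes. *P0-3.9GFPCre* pool 3 had 5.70 CPM of *Gm21742* and 5.97 CPM of *Gm21857* although its sum over the 4 broadly expressed Y-linked genes was 1.66 CPM. Summed with the genes that share its sequences, *Mid1* gave -2.55 (adjusted p = 3.08e-06 in edgeR) and held 90.3% of the reads in that sum. *Gm21742* and *Gm21857* held 4.78% and 2.06% of their sums, which are mostly *Mid1* reads, so the sums give no check of these loci.

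Of the 31 called genes, 15 shared at most 11% of their sequences with other genes, and their reads could be assigned to a single gene. They lie on 8 chromosomes, and of the pathway and marker lists examined here only those with *Usp11* held any of them. *Hgsnat*, on chromosome 8 from 25944453 to 25976753, encodes a lysosomal membrane enzyme needed to degrade heparan sulfate. *Hgsnat* had 13.2, 12.3 and 15.1 CPM in the *Le-Cre* pools 1, 2 and 3, 33.8, 33.8 and 29.1 CPM in the *P0-3.9GFPCre* pools and 14.3, 28.1 and 11.1 CPM in the *FVB/N* pools, a 2.38-fold lower level in *Le-Cre* (log2 fold change -1.25 ± 0.10 (SE), adjusted p = 0.00174 in edgeR). *Pbx4*, on chromosome 8 from 69832491 to 69872292, encodes a homeodomain transcription factor of the PBX family. It had 3.1, 3.0 and 3.26 CPM in *Le-Cre*, 8.55, 9.06 and 7.86 CPM in *P0-3.9GFPCre* and 2.87, 8.43 and 3.6 CPM in *FVB/N* (log2 fold change -1.44 ± 0.14 (SE), adjusted p = 0.0065 in edgeR). Neither gene overlapped between the Cre lines, and *FVB/N* pool 2 was the high background pool for both.

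*Adamts4*, which encodes a secreted protease that cleaves aggrecan and related proteoglycans, had 3.34, 3.08 and 3.8 CPM in *Le-Cre*, 9.79, 8.09 and 10.9 CPM in *P0-3.9GFPCre* and 3.52, 10.7 and 3.81 CPM in *FVB/N* (log2 fold change -1.50 ± 0.16 (SE), adjusted p = 0.00985 in edgeR). *Hjurp*, whose product places the centromere histone CENP-A, had 12.7, 14 and 13.9 CPM in *Le-Cre*, 25.2, 21.4 and 24 CPM in *P0-3.9GFPCre* and 11.8, 19.9 and 13.4 CPM in *FVB/N* (log2 fold change -0.80 ± 0.09 (SE), adjusted p = 0.0131 in edgeR). Both genes lie on chromosome 1 and both were lower in every *Le-Cre* pool than in any *P0-3.9GFPCre* pool. *Slc26a11*, an anion and sulfate transporter gene of chromosome 11, had 5.41, 5.85 and 6.87 CPM in *Le-Cre*, 10.8, 13.7 and 12.3 CPM in *P0-3.9GFPCre* and 5.67, 12.9 and 3.56 CPM in *FVB/N* (log2 fold change -1.02 ± 0.14 (SE), adjusted p = 0.0294 in edgeR).

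*Mdk* encodes midkine, a heparin-binding growth factor. It had 17.8, 20.5 and 18.5 CPM in *Le-Cre*, 27, 30.4 and 29.8 CPM in *P0-3.9GFPCre* and 19.7, 28.7 and 25.3 CPM in *FVB/N*, with *FVB/N* pools 2 and 3 on the *P0-3.9GFPCre* side (log2 fold change -0.62 ± 0.09 (SE), adjusted p = 0.0294 in edgeR). *Sspn*, which encodes sarcospan of the dystrophin-associated membrane complex, had 8.93, 8.15 and 8.19 CPM in *Le-Cre*, 13.1, 13.4 and 14.1 CPM in *P0-3.9GFPCre* and 9.95, 11.5 and 10.9 CPM in *FVB/N* (log2 fold change -0.68 ± 0.10 (SE), adjusted p = 0.0343 in edgeR). For *Sspn* the *FVB/N* pools lay between the Cre lines, and no *FVB/N* pool overlapped either of them.

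A further pair of genes was close to 0 in *Le-Cre* lenses. *Akr1b8*, an aldo-keto reductase gene related to aldose reductase, had 0.0356, 0.273 and 0.226 CPM in *Le-Cre*, 3.54, 3.63 and 1.89 CPM in *P0-3.9GFPCre* and 0.908, 3.27 and 0.369 CPM in *FVB/N* (log2 fold change -4.08 ± 0.55 (SE), adjusted p = 0.0272 in edgeR). *Abca13*, a gene for a large lipid transporter of the ABC family, had 0.427, 0.546 and 0.226 CPM in *Le-Cre*, 2.96, 7.31 and 2.69 CPM in *P0-3.9GFPCre* and 0.794, 10.6 and 0.532 CPM in *FVB/N* (log2 fold change -3.39 ± 0.49 (SE), adjusted p = 0.0325 in edgeR). *P0-3.9GFPCre* pool 2 and *FVB/N* pool 2 were the highest pools for *Abca13*. At these levels, few reads stand behind each *Le-Cre* value.

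The called noncoding transcripts with little shared sequence were *Gm42744*, *B230312C02Rik* and *6430562O15Rik*, and all 3 were lower in *Le-Cre*. Their log2 fold changes were -0.90, -0.76 and -2.23, with adjusted p of 0.0307, 0.035 and 0.0498 in edgeR. *Gm5345*, a processed pseudogene on chromosome 8, had 2 counts over the *Le-Cre* pools and 110 over the *P0-3.9GFPCre* pools, a ratio of 62.1 with a 95% counting interval of 16.8 to 519 (exact binomial, counting error only).

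Only 4 genes were higher in *Le-Cre*. *Zdhhc2*, which encodes an enzyme that attaches palmitate to proteins, had 18.9, 20.4 and 19.1 CPM in *Le-Cre*, 11.5, 11.5 and 9.65 CPM in *P0-3.9GFPCre* and 19, 11.7 and 17.4 CPM in *FVB/N* (log2 fold change 0.84 ± 0.10 (SE), adjusted p = 0.0144 in edgeR). *Usp11*, on chromosome X from 20703906 to 20720539, encodes a deubiquitinase that acts on p53 and DNA repair proteins. *Usp11* had 56.1, 60.2 and 60.1 CPM in the *Le-Cre* pools 1, 2 and 3, 33.6, 25.8 and 37.4 CPM in the *P0-3.9GFPCre* pools and 67.9, 36.8 and 64 CPM in the *FVB/N* pools, a 1.82-fold higher level in *Le-Cre* (log2 fold change 0.86 ± 0.12 (SE), adjusted p = 0.0294 in edgeR). In both genes *FVB/N* pools 1 and 3 lay near *Le-Cre*, and pool 2 near *P0-3.9GFPCre*.

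The other called genes higher in *Le-Cre* were *Gm9864* and *Gm13167*, both annotated pseudogenes. *Gm9864* had 23.4, 26.6 and 22.6 CPM in *Le-Cre*, 15.8, 15.8 and 15.1 CPM in *P0-3.9GFPCre* and 21.7, 13.2 and 17.3 CPM in *FVB/N* (log2 fold change 0.64 ± 0.09 (SE), adjusted p = 0.0294 in edgeR), and *Gm13167*, a copy related to *Hmgb2*, had 6.58, 7.33 and 8.41 CPM in *Le-Cre*, 2.22, 2.42 and 3.64 CPM in *P0-3.9GFPCre* and 0, 0 and 9.99 CPM in *FVB/N* (log2 fold change 1.43 ± 0.21 (SE), adjusted p = 0.0343 in edgeR). They shared 78.1% and 100% of their sequences with other genes. Summed with those genes, *Gm9864* had a log2 fold change of 0.04 (adjusted p = 0.938 in edgeR) and *Gm13167* -0.07 (adjusted p = 0.915 in edgeR). They held 29.0% and 15.4% of those sums, so whether the reads belong to these loci was not tested.

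**Figure D3:**
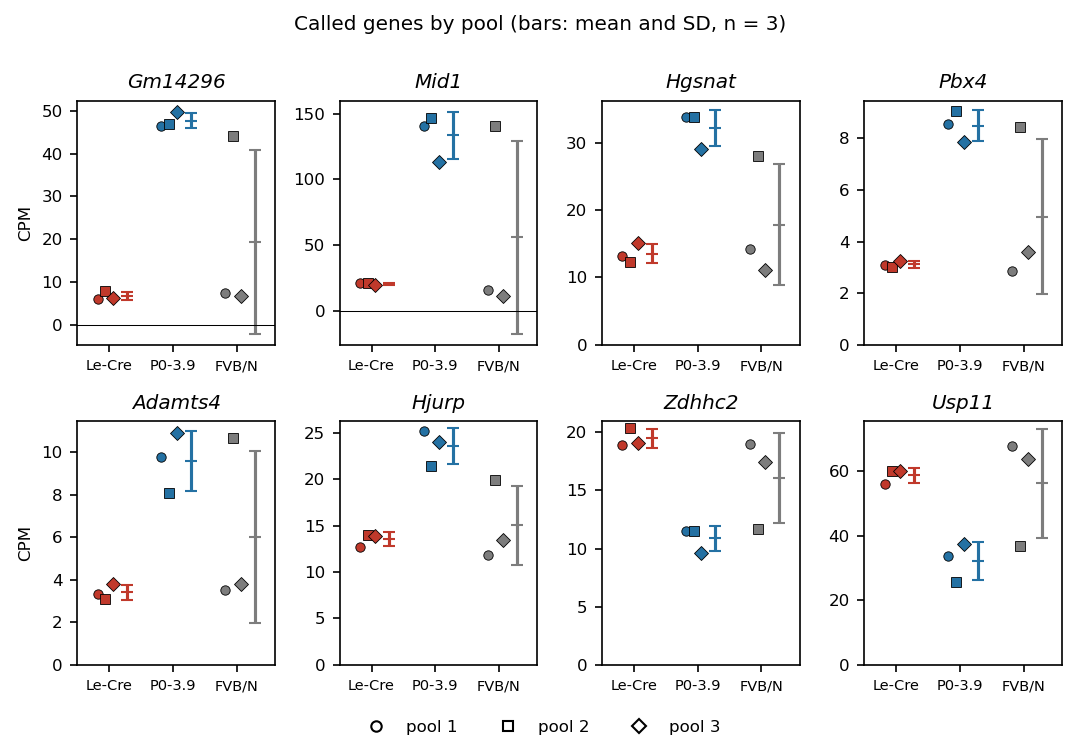
Each panel shows CPM per pool for 1 called gene, with pools 1, 2 and 3 as circle, square and diamond and the mean and SD of each line beside them. In all 8 panels the Cre lines do not overlap, and the *FVB/N* square (pool 2) lies with *P0-3.9GFPCre* while the other *FVB/N* symbols lie with *Le-Cre*. The 8 were picked from the 24 of 31 called genes with this *FVB/N* pattern, and no called gene overlapped between the Cre lines.

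Several of the remaining lower genes lost their call once summed with genes that share their sequences. *Ahcy* encodes the enzyme that clears S-adenosylhomocysteine, the by-product of methylation reactions. It had 4.3, 5.81 and 6.83 CPM in *Le-Cre*, 17.4, 15.7 and 12 CPM in *P0-3.9GFPCre* and 7.68, 12.5 and 10.4 CPM in *FVB/N* (log2 fold change -1.42 ± 0.19 (SE), adjusted p = 0.0272 in edgeR), but 68.6% of its sequences occur in 2 other loci, and the 3 loci together gave a log2 fold change of -0.27 (adjusted p = 0.53 in edgeR). *Mettl23*, a protein methyltransferase gene, had 23.7, 21.6 and 24.4 CPM in *Le-Cre*, 41.4, 36.3 and 36.4 CPM in *P0-3.9GFPCre* and 23.2, 38 and 25.9 CPM in *FVB/N* (log2 fold change -0.71 ± 0.08 (SE), adjusted p = 0.0135 in edgeR), and -0.14 (adjusted p = 0.677 in edgeR) once summed with the neighbouring *Srsf2*. *Gm7353* had no read in *Le-Cre* and at least 53.4-fold more than the floor of 3 counts in *P0-3.9GFPCre*, and *Gm22625*, annotated as a microRNA, at least 28.2-fold more. These limits cover counting error only, not how shared reads were assigned to genes. *Gm7353* shared 94.6% and *Gm22625* 100% of their sequences with other genes. Summed with the genes that share their sequences, *Gm7353* and *Gm22625* gave -0.09 (adjusted p = 0.886 in edgeR) and -0.02 (adjusted p = 0.959 in edgeR). *Ahcy*, *Mettl23*, *Gm7353* and *Gm22625* held 26.4%, 18.8%, 12.3% and 0.02% of their sums, so a sum near 0 does not show that the gene itself is alike in both lines. In the *FVB/N* pools *Gm7353* had 0, 2.37 and 0 CPM and *Gm22625* 0.946, 0 and 0 CPM. *Gm22625* was also the single called gene in which *FVB/N* pool 2 lay on the *Le-Cre* side.

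A further 3 genes, named after their values were seen, had an adjusted p of at most 0.05 with less than a 1.5-fold difference. *Thbs1*, which encodes the matrix protein thrombospondin 1, had 89.7, 94.4 and 97.7 CPM in *Le-Cre*, 129.8, 152 and 128 CPM in *P0-3.9GFPCre* and 142, 143 and 125 CPM in *FVB/N* (log2 fold change -0.54 ± 0.08 (SE), adjusted p = 0.0343 in edgeR). Here all *FVB/N* pools lay on the *P0-3.9GFPCre* side. *Ddx26b* had a log2 fold change of -0.57 and *Plekhm1*, a gene of lysosome traffic, 0.51 (adjusted p = 0.0406 and 0.0343 in edgeR).

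Leaving out 1 pool at a time gave 11 to 29 calls. The fits without *Le-Cre* pool 1, 2 or 3 called 12, 19 and 14 genes, and those without *P0-3.9GFPCre* pool 1, 2 or 3 called 29, 18 and 11. *Gm14296*, *Mid1*, *Hgsnat*, *Gm17258*, *Pbx4* and *Gm21742* were called in all 6 of these fits, and 8 of the 31 genes in 0 of them. *Usp11* was called in 2 of them, those without *P0-3.9GFPCre* pool 2 or pool 3.

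Targets of p53 were examined as a list, since its members include genes that the study named in *Le-Cre* against *FVB/N* on these same samples. Of the 39 tested targets, 0 passed the cutoff in edgeR and 3 in DESeq2 without a prior, which called 74 of all 14989 tested genes. At an unadjusted p under 0.05 in edgeR, 9 of the targets were higher in *Le-Cre* and 0 lower. By comparison, 3.86% of all tested genes were higher at that level. The median log2 fold change was 0.15, 34 of the 39 lay above 0, against 49.3% of all tested genes, and in 13 no *Le-Cre* pool was as low as any *P0-3.9GFPCre* pool, against 6.74% of all tested genes. The list's direction is no independent evidence, because the study chose part of it on these samples.

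*Cdkn1a* encodes p21, which stops the cell cycle. It had 11.4, 11 and 11.8 CPM in *Le-Cre*, 3.74, 1.5 and 5.75 CPM in *P0-3.9GFPCre* and 1.29, 1.2 and 1.19 CPM in *FVB/N* (log2 fold change 1.63 ± 0.34 (SE), adjusted p = 0.151 in edgeR). The *P0-3.9GFPCre* pools were the most scattered of the lines, and each of them lay between the *Le-Cre* and the *FVB/N* pools. *Eda2r*, a receptor of the TNF receptor family, had 2.21, 1.72 and 2.44 CPM in *Le-Cre*, 0.494, 0.533 and 0.898 CPM in *P0-3.9GFPCre* and 0.227, 0 and 0.246 CPM in *FVB/N* (log2 fold change 1.72 ± 0.36 (SE), adjusted p = 0.163 in edgeR). *Trp53inp1*, which encodes a nuclear protein that promotes p53 activity, had 10.7, 14 and 10.9 CPM in *Le-Cre*, 6.42, 7.65 and 7.45 CPM in *P0-3.9GFPCre* and 5.9, 6.11 and 5.32 CPM in *FVB/N* (log2 fold change 0.73 ± 0.14 (SE), adjusted p = 0.122 in edgeR). None of these overlapped between the Cre lines and none passed the cutoff in edgeR. DESeq2 without a prior called *Eda2r* and *Trp53inp1* (adjusted p = 0.0179 and 0.00885), and also *Phlda3* (adjusted p = 0.017), but not *Cdkn1a*.

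*Phlda3*, an inhibitor of AKT signalling, had 5.69, 4.52 and 5.34 CPM in *Le-Cre*, 1.85, 1.5 and 3.46 CPM in *P0-3.9GFPCre* and 1.44, 1.89 and 2.29 CPM in *FVB/N* (log2 fold change 1.19 ± 0.29 (SE), adjusted p = 0.264 in edgeR). *Ddit4l*, an inhibitor of mTOR signalling, had 1.99, 2.15 and 2.04 CPM in *Le-Cre*, 0.905, 0.824 and 1.08 CPM in *P0-3.9GFPCre* and 0.567, 0.387 and 0.0409 CPM in *FVB/N* (log2 fold change 1.13 ± 0.29 (SE), adjusted p = 0.276 in edgeR), and *Ephx1*, a detoxifying hydrolase, had 7.01, 8.39 and 8.46 CPM in *Le-Cre*, 4.85, 4.8 and 6.82 CPM in *P0-3.9GFPCre* and 4.77, 3.74 and 4.01 CPM in *FVB/N* (log2 fold change 0.53 ± 0.17 (SE), adjusted p = 0.447 in edgeR). For all 9 targets with an unadjusted p under 0.05, the 3 *FVB/N* pools lay on the *P0-3.9GFPCre* side, against 18.4% of all tested genes. The study named part of these targets in *Le-Cre* against *FVB/N* on these same samples, so this placement is no independent evidence. *FVB/N* pool 2 lay on the same side as the other *FVB/N* pools in these targets, unlike in most of the called genes.

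**Figure D4:**
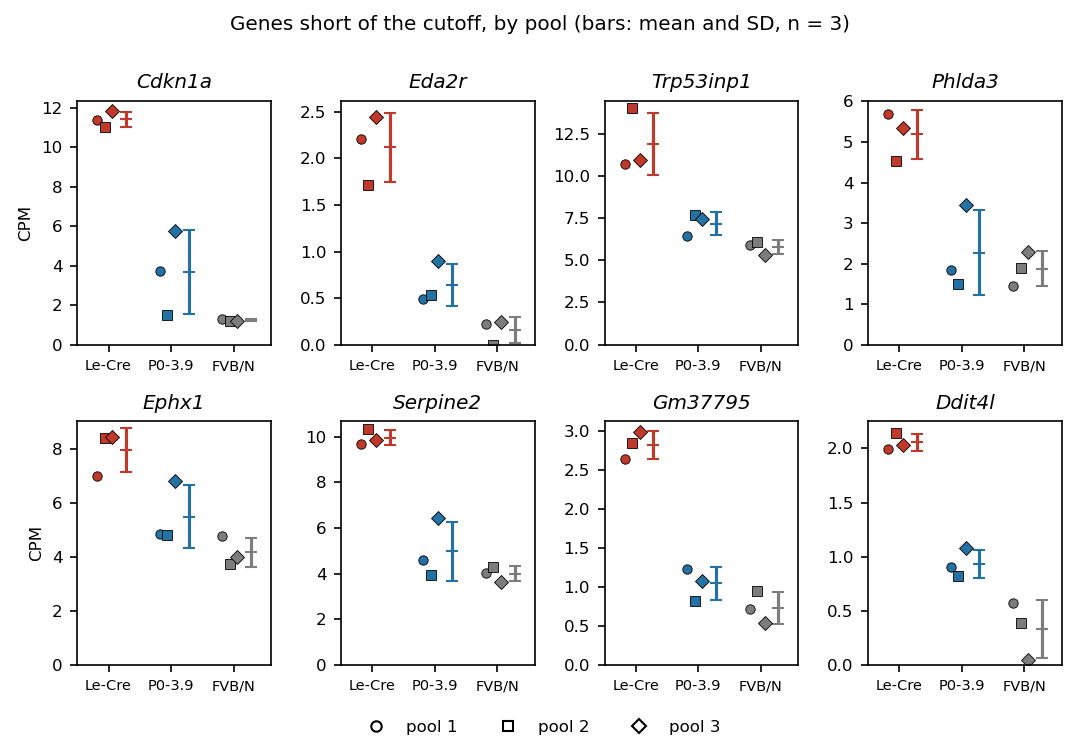
Each panel shows CPM per pool for a gene that fell short of the cutoff in edgeR, with pools 1, 2 and 3 as circle, square and diamond and the mean and SD of each line beside them. The *Le-Cre* pools lie above all others in the 8 panels, and the *P0-3.9GFPCre* pools lie between them and the *FVB/N* pools or overlap the *FVB/N* pools. The 8 genes were picked from the 16 heatmap genes that the study named on these samples, so their placement is no independent evidence.

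The heatmap genes of the study, 16 genes that it named against *FVB/N* on these samples, held 1 call (*Usp11*) between the Cre lines in edgeR and 6 in DESeq2 without a prior. Over all 14989 tested genes these fits called 31 and 74. For 11 of the 16 the *Le-Cre* pools lay entirely above the *P0-3.9GFPCre* pools, against 6.74% of all tested genes. This count is no independent evidence, since the genes were chosen on these samples. *Serpine2*, which encodes a secreted protease inhibitor, had 9.68, 10.3 and 9.86 CPM in *Le-Cre*, 4.61, 3.92 and 6.42 CPM in *P0-3.9GFPCre* and 4.01, 4.3 and 3.64 CPM in *FVB/N* (log2 fold change 0.997 ± 0.18 (SE), adjusted p = 0.0819 in edgeR), and without *P0-3.9GFPCre* pool 3 its adjusted p was 0.0448 in edgeR. DESeq2 without a prior called *Serpine2* and *Gm37795* (adjusted p = 0.000513 and 0.0135). *Gm37795* had 2.63, 2.85 and 2.99 CPM in *Le-Cre*, 1.23, 0.824 and 1.08 CPM in *P0-3.9GFPCre* and 0.719, 0.946 and 0.532 CPM in *FVB/N* (log2 fold change 1.42 ± 0.28 (SE), adjusted p = 0.122 in edgeR). *Rgs8* and *Ceacam2* had log2 fold changes of 0.29 and 0.31, with adjusted p of 0.264 and 0.514 in edgeR. *Ceacam2* shared 46.6% of its sequences with other genes.

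The pools of the Cre lines overlapped for 5 of the 16, which include the stress genes *Hspb1* and *Hmox1*. *Hspb1*, a small heat shock protein, was 107 ± 20.2 CPM (SD, n = 3) in *Le-Cre*, 90.8 ± 25.1 CPM in *P0-3.9GFPCre* and 36, 36.9 and 38.6 CPM in the *FVB/N* pools. *Hmox1*, which degrades heme, was 265 ± 23.7 CPM in *Le-Cre*, 228 ± 34.7 CPM in *P0-3.9GFPCre* and 125 CPM, 141 CPM and 198 CPM in the *FVB/N* pools. Their log2 fold changes between the Cre lines were 0.24 ± 0.20 (SE) and 0.22 ± 0.11. The other 3, *Scn11a*, *Hyal1* and *Sbspon*, had log2 fold changes of -0.41, -0.43 and 0.50. Of their sequences, *Hspb1* shared 49.9%, *Hyal1* 49.6% and *Sbspon* 72.35% with other genes, while *Hmox1* and *Scn11a* shared 0%.

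In edgeR the 33 gene lists contained 1 called gene, *Usp11*, which stood in the list of p53 regulators and among the heatmap genes. The other 31 lists had 0 calls in edgeR. DESeq2 without a prior, which called 74 of all 14989 tested genes, called 8 genes in 6 of the lists. These were *Usp11*, *Eda2r*, *Phlda3*, *Trp53inp1*, *Serpine2*, *Gm37795*, *Aurka* and *Lgsn*. The medians were small, and 24 of the 33 had a median log2 fold change between -0.1 and 0.1. *Pax6* itself was 129.9 ± 6.74 CPM (SD, n = 3) in *Le-Cre*, 139 ± 6.78 CPM in *P0-3.9GFPCre* and 133, 135 and 126 CPM in the *FVB/N* pools (log2 fold change -0.10 ± 0.07 (SE), adjusted p = 0.76 in edgeR), and its pools overlapped. The 16 lens transcription factors had a median of -0.01, ranging from -0.21 for *Mafg* to 0.17. The 8 tested factors of the *Pax6* P0 enhancer ranged from -0.13 to 0.08.

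Crystallins, the main proteins of the fibre cell, had a median of 0.07 over 16 genes and 1 member at an unadjusted p under 0.05. That was *Crygs*, with 4093, 4039 and 4867 CPM in *Le-Cre*, 2894, 3057 and 3690.1 CPM in *P0-3.9GFPCre* and 4178, 2941 and 3484 CPM in *FVB/N* (log2 fold change 0.43 ± 0.11 (SE), adjusted p = 0.264 in edgeR). Among 20 lens membrane and filament genes the median was -0.00, and the largest difference was that of *Lgsn*, the gene of the lens protein lengsin, at a low level. It had 0.142, 0.312 and 0.317 CPM in *Le-Cre*, 1.15, 1.65 and 1.66 CPM in *P0-3.9GFPCre* and 0.34, 5.29 and 0.164 CPM in *FVB/N* (log2 fold change -2.52 ± 0.46 (SE), adjusted p = 0.0887 in edgeR).

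Most genes of the list of glycolysis and polyol (sugar alcohol) genes had log2 fold changes below 0, although none passed the cutoff in edgeR. The list also holds a glucose transporter gene, *Slc2a1*. The lens depends heavily on glycolysis because its fibre cells lack blood supply and lose their mitochondria. Of 21 tested members 0 passed the cutoff, 7 were lower and 0 higher at an unadjusted p under 0.05, against 4.46% of all tested genes lower at that level, and 18 had a log2 fold change below 0. The median was -0.11 and lay between -0.16 and -0.09 in every alternative run with edgeR.

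*Ldha*, lactate dehydrogenase A, had 227, 218 and 230.4 CPM in *Le-Cre*, 276, 269 and 251 CPM in *P0-3.9GFPCre* and 255, 279.9 and 278 CPM in *FVB/N* (log2 fold change -0.24 ± 0.06 (SE), adjusted p = 0.276 in edgeR). *Gapdh* had 455, 634 and 908 CPM in *Le-Cre*, 999.7, 1086 and 1123 CPM in *P0-3.9GFPCre* and 958, 1199 and 1048 CPM in *FVB/N* (log2 fold change -0.68 ± 0.20 (SE), adjusted p = 0.362 in edgeR), and the *Le-Cre* pools differed from each other by more than the *P0-3.9GFPCre* pools did. *Gapdh* shares 25% of its sequences with other loci. *Akr1b3*, aldose reductase, was 20.1 ± 2.04 CPM (SD, n = 3) in *Le-Cre*, 25 ± 2.07 CPM in *P0-3.9GFPCre* and 17, 21.1 and 21.4 CPM in *FVB/N*, with the *FVB/N* pools on the *Le-Cre* side.

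Other lists gave single genes short of the cutoff in edgeR. Among 30 cell cycle genes 4 were higher and 0 lower at an unadjusted p under 0.05, against 3.86% and 4.46% of all tested genes, led by the mitotic kinase gene *Aurka* (log2 fold change 0.60, adjusted p = 0.201 in edgeR) and the replication gene *Mcm4* (0.31, 0.496). *Cdkn1c*, a cell cycle inhibitor of differentiating fibre cells, had a log2 fold change of the opposite sign to *Cdkn1a*, at 1008 ± 101 CPM (SD, n = 3) in *Le-Cre*, 1207 ± 37.8 CPM in *P0-3.9GFPCre* and 1208, 1196 and 1157 CPM in *FVB/N* (log2 fold change -0.26 ± 0.08 (SE), adjusted p = 0.417 in edgeR). *Cdkn1c* shared 24.8% of its sequences with other genes. The BMP target genes *Id1* and *Id3* had log2 fold changes of -0.31 and -0.22, with adjusted p of 0.333 and 0.476 in edgeR.

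Among 26 antioxidant genes, *Gpx4*, which protects membrane lipids, had a log2 fold change of -0.42 and *Gclc*, which starts glutathione synthesis, 0.25 (adjusted p = 0.19 and 0.425 in edgeR). The chaperone gene *Dnajb4* had 0.32, *Fdft1* of cholesterol synthesis -0.32 and *Notch2* -0.26, and none of these passed the cutoff. Of their sequences, *Gpx4* shared 34.5% and *Fdft1* 26.3% with other genes. Of 22 DNA damage and repair genes, 0 reached an unadjusted p under 0.05, and their log2 fold changes ran from -0.23 to 0.33.

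**Figure D5:**
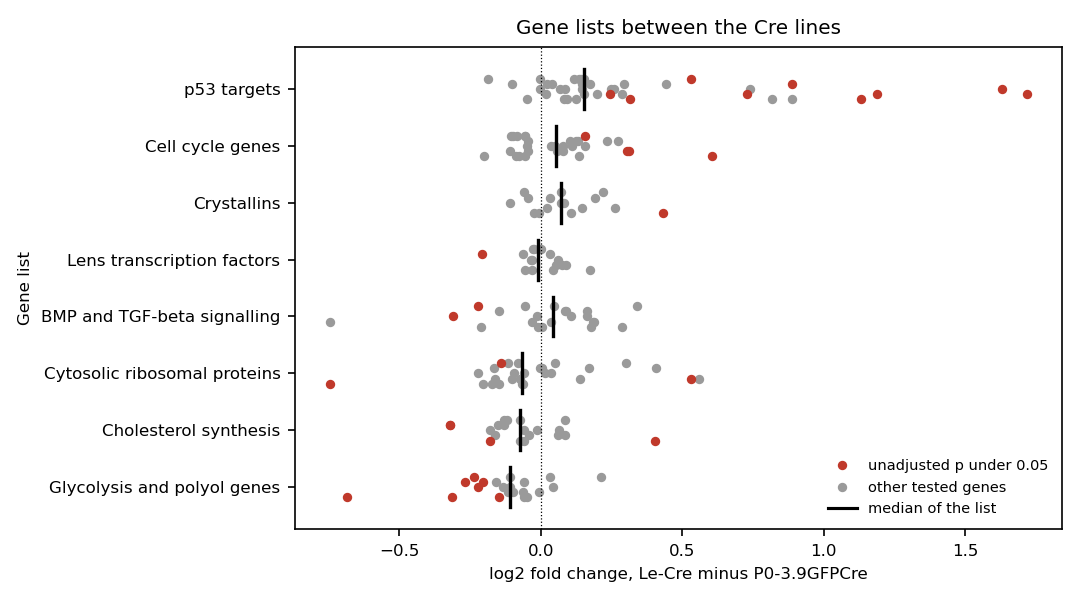
Points give the log2 fold change (*Le-Cre* minus *P0-3.9GFPCre*) of each tested member of 8 gene lists, with red for an unadjusted p under 0.05 and a black bar for the list's median. The p53 targets have a median of 0.15 with a tail to the right, and the glycolysis and polyol genes a median of -0.11, while lens transcription factors stay near 0.

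Markers of other cell types summed to far less than the crystallins in both lines. Blood markers summed to 45.3 to 120.2 CPM in *Le-Cre* and 41.7 to 68.9 CPM in *P0-3.9GFPCre*, and vessel markers to 147 to 185 CPM and 104 to 169 CPM. Of 14 tested vessel markers 13 had a log2 fold change above 0, with a median of 0.15, and 0 reached an unadjusted p under 0.05. Their part in the other differences was not tested. Pigment epithelium, iris and ciliary markers summed to 30.6 to 59.3 CPM in *Le-Cre* and 34.8 to 48.1 CPM in *P0-3.9GFPCre*. Retina markers summed to 6.6 to 18.6 CPM and 8.23 to 14.2 CPM, macrophage markers to 3.08 to 5.19 CPM and 2.37 to 6.55 CPM, and cornea markers to 4.43 to 6.55 CPM and 5.33 to 8.04 CPM, with *Kera*, *Krt12*, *Krt14* and *Trp63* at 0 in all pools. In whole lenses, fewer cells of a type and less RNA per cell cannot be told apart.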

How the data were processed

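The deposited tables hold expected counts, which the authors made by trimming single-end reads of polyadenylated RNA (51 bases, 50 cycles) with Trimmomatic 0.36, mapping them to GRCm38 with GSNAP and quantifying genes with RSEM 1.3.0. Tool versions come from the submitters' processing notes. The gene annotation is not given in the sources used here. The authors' TPM values, scaled for gene length, were read but entered no test. Of 47729 gene identifiers, 47310 matched GENCODE M21, which gave the coordinates.

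Expected counts were rounded and tested in R 4.3.3 with edgeR 4.0.16 (TMM, filterByExpr, glmQLFit, glmQLFTest, Benjamini-Hochberg) over the 6 pools of the Cre lines. DESeq2 1.42.0 and limma 3.58.1 were alternatives. The study's methods name DESeq2 and the cutoff used here. Each SE was taken as the size of the log2 difference over the root of F. CPM uses TMM factors of all 9 pools. The scripts were tested on simulated data. Pools were grouped by their titles, and 1 description disagreed with its title's replicate number. p-values measure the spread between pools of 3 mice each. All genes past the cutoff, the study's 16 heatmap genes, *Pax6* and up to 3 genes per list by p were named, and other names are marked. The comparison, its genes and its lists were chosen with earlier results of these data known.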

Additional observations from a re-analysis of the deposited data

How the results depend on the processing

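Against 31 calls (4 higher, 27 lower in *Le-Cre*), edgeR with all 9 pools gave 0 (0 higher, 0 lower), and with *FVB/N* pool 2 left out 18 (2 and 16). DESeq2 without a prior gave 74 (19 and 55), no filter on low counts 185 (77 and 108), the Y-linked covariate 16 (3 and 13), and an adjusted p of at most 0.10 gave 47 (9 and 38). Leaving out 1 pool gave 11 to 29 calls, with 1 to 9 higher and 7 to 20 lower. RLE size factors and TMM without crystallins each called 30 of the 31, DESeq2 with a prior 22, limma-voom 27, and a mean of at least 10 counts 29. Without a fold minimum 34 genes were called. The cause of the change without a filter was not tested.

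The replicate block gave 33 calls, 9 higher and 24 lower, of which 25 were among the 31. Replicate numbers correlated by 0.123, 0.131 and 0.054 for the same number and by -0.111 to -0.012 for different numbers, so every pool correlated best with its own number, as a hint from the data. Not every pair exceeded 0.1, so the numbers were not taken as pairing.

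Summing with genes that share sequence left 8 of 16 genes called, 7 short of the cutoff, and turned *Gm13167* to -0.067. The gene held over 50% of its sum for 2 of the 16. In the other alternatives, over 68 genes tallied (the 31 called and 37 others), no direction turned. With 3 pools per line, differences that miss the cutoff are not shown to be absent, and genes near 1 CPM rest on few reads per pool.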
